A study of Mus musculus with 6 samples.

Results

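The genes described here are 10 components of the Notch pathway: the receptors Notch1, Notch2 and Notch3, the ligands Dll1, Dll3 and Jag1, and the transcriptional targets Hes1, Hes5, Hey1 and Heyl. They were picked by gene symbol from tables of 22651 genes, and all 10 were present in every table. The tables came from mRNA-sequencing of whole telencephalon at postnatal day 0 of 3 wild-type mice (WT) and of 3 mice with Tsc1 deleted by Emx1-Cre (TSC1). All 6 mice carried the homozygous floxed Tsc1 allele (TSC1 flox/flox). The WT mice were Cre-negative littermates with the genotype Emx1 +/+, and the TSC1 mice had the genotype Emx1-cre/+, in which Cre made from the Emx1 locus cuts out exons of Tsc1 in dorsal cortical cells of the embryo. The subpallium and the blood vessels lie outside that Cre domain but inside the sequenced tissue. The comparison asked how hyperactivated mTOR signaling altered these transcripts, and each mouse gave 1 library.

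Notch signaling passes between neighbouring cells. A Delta or Jagged ligand on a differentiating cell engages a Notch receptor on the next cell, the receptor is cleaved, and its intracellular part joins Rbpj and Mastermind proteins in the nucleus to switch on Hes and Hey genes. In the embryonic and newborn forebrain the Hes and Hey repressors keep radial glia, the neural stem cells, from becoming neurons, and the pathway also acts in blood vessels, where Notch3 and Heyl mark the mural cells around capillaries.

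The letters that Rbpj is known to recognise were looked for near the start sites of the members. The RefSeq promoter table for GRCm38.p6, the assembly also called mm10, held 8 start sites of 7 members, and the 250 bases before each were searched for TGGGAA on both strands. Only the Hes5 window matched, with 2 matches that begin 226 and 82 bases before the start, the former on the opposite strand. The letters occur in 21.6% of all 32851 promoter windows of that length in the table. The start used is that of the table, chr4:154960923 on the plus strand, whereas the gene span RefSeq gives for Hes5 opens at 154960626, so by that span both matches lie inside the gene. The 30 bases around each match, chr4:154960685-154960714 and chr4:154960829-154960858, are shown because Hes5 had the highest level of the 10 genes, and capitals mark the matched letters:
Hes5, distal match: agggcgagcgcgTTCCCAcagcccggacat
Hes5, proximal match: ggccgccgagtgTGGGAAcggccgcggcgc
Hes1, Hey1 and Heyl had no entry in the table. A match describes the letters alone.

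The total of RSEM's expected counts, the estimated reads per gene, ranged from 14119365 to 17772865 per library, so 3 counts corresponded to between 0.169 and 0.212 CPM (counts scaled to library size). TSC1 replicate 3 lay nearer to WT replicate 1 on the first principal component of log2 CPM, at -3.95 against -7.43, than to TSC1 replicates 1 and 2, at 26.5 and 30.3. On the second component TSC1 replicate 3 and WT replicate 1 were the furthest apart of all libraries, at -18.0 and 26.1. The labels give no sex. The Y-linked gene Ddx3y had 1570 counts in WT replicate 3, 1665 in TSC1 replicate 3 and 0 in all the others. Xist, an RNA of female cells, had 46 counts in WT replicate 3, 69 in TSC1 replicate 3 and 40431 to 57386 in the others. By these genes both samples numbered 3 were male and the others female. Tsc1 itself had 2230, 1613 and 1157 counts in the WT mice and 1116, 852 and 1004 in the TSC1 mice. On the log2 scale TSC1 differed from WT by -0.66 with a standard error of 0.175, which did not pass in edgeR (adjusted p = 0.09998) and passed in DESeq2 (adjusted p = 0.00319). This count covers the whole transcript, including the exons that Cre leaves in place. The forebrain genes Emx1 and Lhx2 were present in every library, Emx1 at 36.2 to 47.4 TPM and Lhx2 at 110.65 to 157.3 TPM.

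None of the 10 Notch genes passed the test between TSC1 and WT. With edgeR's quasi-likelihood test, 0 of 10 had a Benjamini-Hochberg adjusted p below 0.05, where 1.52% of the 13969 genes tested did (0.859% higher and 0.659% lower in TSC1), and 0 of 10 passed in DESeq2, where 4.55% did, or in limma on log2 TPM. At an unadjusted p below 0.05, 2 of 10 were found (Notch3 and Jag1, both lower in TSC1), where 18.0% of all tested genes were found, and 8.93% of all tested genes were found lower. Point estimates were below 0 for 8 of the 10 genes and above 0 for Notch2 and Dll3. The median log2 fold change was -0.13 over the 10 genes and 0.00 over all tested genes, and the median absolute log2 fold change was 0.133 against 0.134. Each gene was counted at least 64 times in every library, so none was near the limit of detection. These are bulk libraries, in which fewer cells of a type and less RNA per cell cannot be told apart.

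**Figure D1:**
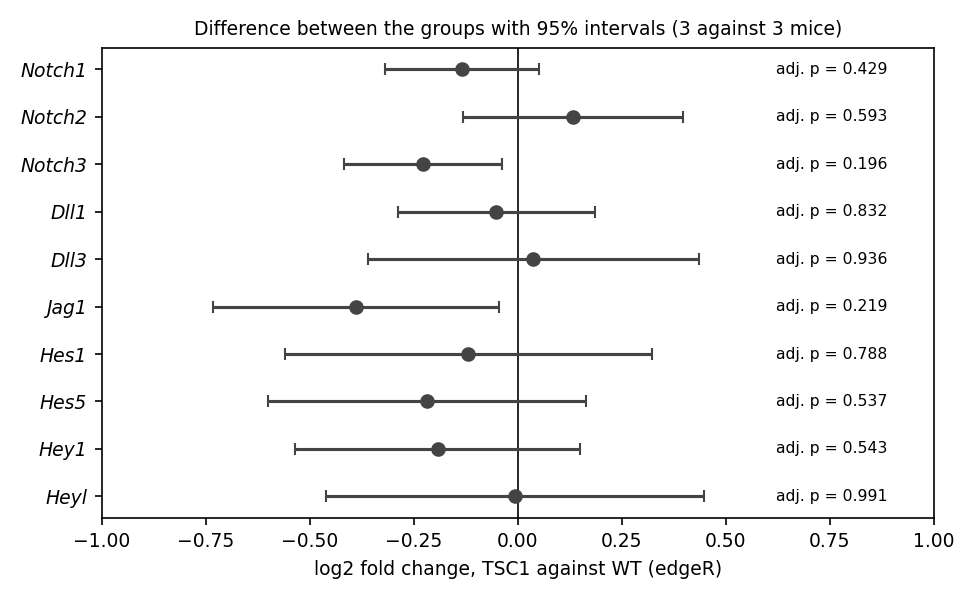
The log2 fold change of each of the 10 genes (horizontal axis, TSC1 against WT, edgeR) with its 95% interval and adjusted p, from 3 WT and 3 TSC1 mice. The intervals of Notch3 and Jag1 end at -0.04 and -0.05 below 0, those of the other 8 genes span 0, and no adjusted p is below 0.196.

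Per transcript, in TPM (abundance corrected for transcript length and library size), the targets Hes5 and Hey1 were the most abundant of the 10 genes, at 34.0 ± 4.95 and 33.4 ± 5.03 TPM (SD, n = 3) in WT. Notch1 and Notch2 followed at 19.2 ± 2.23 and 18.5 ± 1.11 TPM (SD, n = 3), then Dll1 at 15.6 ± 1.43, Notch3 at 10.2 ± 0.415 and Hes1 at 10.1 ± 1.596 TPM (SD, n = 3). Dll3 at 6.84 ± 1.05, Jag1 at 6.0 ± 0.927 and Heyl at 5.36 ± 0.716 TPM (SD, n = 3) were the least abundant. In this order the WT ranges of Hes5 and Hey1 overlapped, as did those of Notch1 and Notch2, of Notch3 and Hes1, of Dll3 and Jag1, and of Jag1 and Heyl. Hey1 stood above Notch1, Notch2 above Dll1, Dll1 above Notch3 and Hes1 above Dll3 in all 6 mice. In TSC1 the mean levels put Notch2 above Notch1, Hes1 above Notch3 and Heyl above Jag1, and each of these pairs overlapped.

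**Figure D2:**
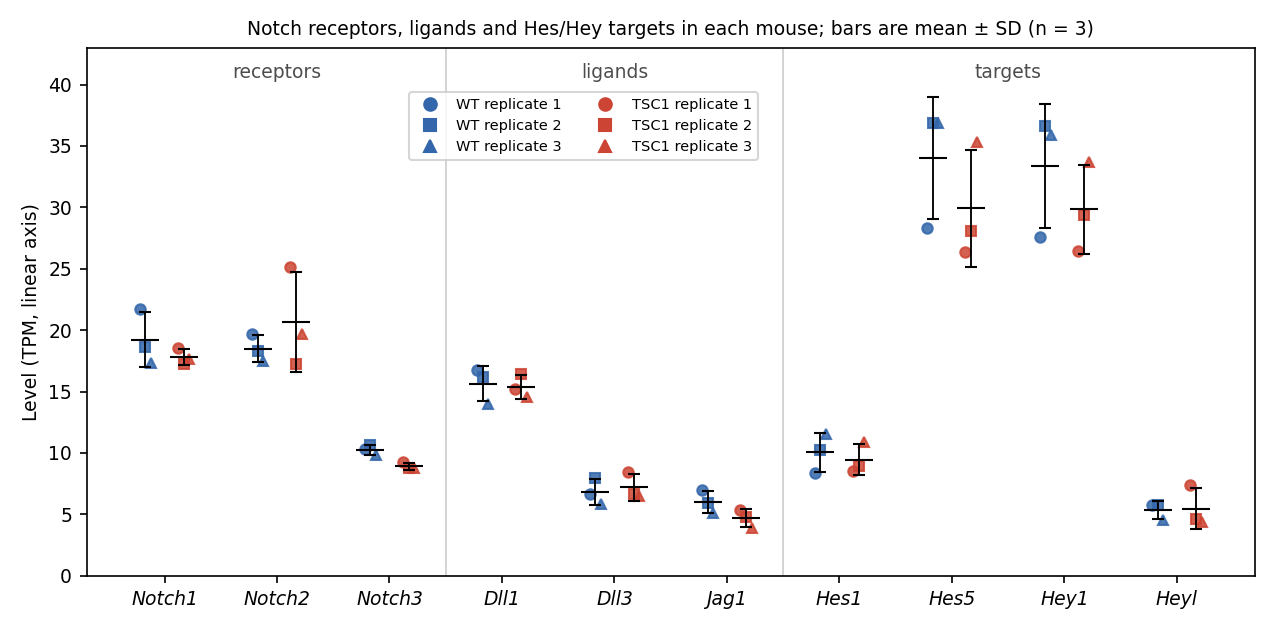
Level in TPM (vertical axis) of each of the 10 genes in the 3 WT (blue) and 3 TSC1 (red) mice, with the symbol giving the replicate number and the bars the mean ± SD of 3 mice. Hes5 and Hey1 lie between 26.4 and 36.9 TPM and Jag1 and Heyl between 3.89 and 7.38 TPM, and the groups overlap for every gene but Notch3.

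Among the receptors, Notch1, the main receptor of cortical radial glia, was measured at 21.7, 18.6 and 17.3 TPM in the WT mice (replicates 1, 2 and 3, the order used throughout) and at 18.5, 17.25 and 17.6 TPM in the TSC1 mice. The WT value of replicate 1 was the highest, and the other five lay within 17.25 to 18.6 TPM. TSC1 differed from WT by -0.13 on the log2 scale (95% interval -0.32 to 0.05, edgeR adjusted p = 0.429), and by -0.064 without WT replicate 1.

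Notch2, a second receptor of radial glia, stood at 19.7, 18.3 and 17.5 TPM in WT and at 25.1, 17.2 and 19.7 TPM in TSC1. TSC1 replicate 1 was the highest of the 6 mice and TSC1 replicate 2 the lowest, so the TSC1 mice enclosed the WT mice. The log2 fold change was 0.13 (95% interval -0.13 to 0.40, edgeR adjusted p = 0.593), and without TSC1 replicate 1 it was -0.012.

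Notch3, the receptor of vascular mural cells that is also found in progenitors, was measured at 10.3, 10.6 and 9.80 TPM in WT and at 9.24, 8.75 and 8.76 TPM in TSC1. The groups did not overlap in TPM, and each varied little between mice. Notch3 had the smallest p of the 10 genes, at -0.23 on the log2 scale (standard error 0.0842, 95% interval -0.42 to -0.04), which did not pass after adjustment over all genes (edgeR adjusted p = 0.196). The estimate was -0.23 without TSC1 replicate 3 and -0.24 with both samples numbered 3 left out.

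On CPM scaled by TMM, the trimmed mean normalization of edgeR, the groups did not overlap for 3 of 10 genes (Notch1, Notch3 and Jag1), all lower in TSC1, where 22.7% of all tested genes were separated in either direction and 11.7% in that direction. For Notch1 the gap lay between 61.5 CPM in WT replicate 3 and 61.4 CPM in TSC1 replicate 1. As a share of the summed TPM of the 3 receptors, Notch1 made up 40.0% ± 1.70, Notch2 38.6% ± 0.572 and Notch3 21.4% ± 1.27 in WT (SD, n = 3). In TSC1 the shares were 37.7% ± 2.497, 43.3% ± 3.88 and 18.9% ± 1.39 (SD, n = 3). The summed level of the receptors was 48.0 ± 3.55 TPM in WT and 47.4 ± 4.98 TPM in TSC1 (SD, n = 3).

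Among the ligands, Dll1, which differentiating progenitors present to their neighbours, was measured at 16.7, 16.15 and 14.01 TPM in WT and at 15.2, 16.4 and 14.5 TPM in TSC1. The 2 sets of mice were interleaved, and the difference was -0.05 on the log2 scale (95% interval -0.29 to 0.18, edgeR adjusted p = 0.832).

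Dll3, a divergent ligand that acts inside the cell on Notch signaling, had the fewest ligand counts, 66 to 111 per library. Its levels were 6.68, 7.96 and 5.87 TPM in WT and 8.45, 6.66 and 6.48 TPM in TSC1, again interleaved. At 0.04 on the log2 scale the difference had a 95% interval of -0.36 to 0.44 (edgeR adjusted p = 0.936), which leaves room for a change of either sign.

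Jag1, a ligand of progenitors and of vessel walls, stood at 6.96, 5.93 and 5.11 TPM in WT and at 5.32, 4.80 and 3.89 TPM in TSC1. WT replicate 3 was below TSC1 replicate 1 in TPM, and in CPM the groups were separated by a narrow gap, 10.5 CPM against 10.2 CPM in the same 2 mice. Its estimate was the furthest from 0 of the 10 genes, a log2 fold change of -0.39 with a standard error of 0.152 (95% interval -0.73 to -0.05, edgeR adjusted p = 0.219). Without TSC1 replicate 3, the lowest mouse, it was -0.28 with an adjusted p of 0.310 in edgeR, and without WT replicate 1, the highest, it was -0.29.

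Markers of vessel cells were read beside Notch3 and Jag1. Of 9 endothelial genes (Pecam1, Cdh5, Kdr, Flt1, Cldn5, Tek, Tie1, Esam and Emcn), 8 had a log2 fold change below 0, with a median of -0.49. With edgeR 0 were called, where 1.52% of all tested genes were. At an unadjusted p below 0.05 edgeR found 6, all lower, where 8.93% of all tested genes were found lower. The summed level of the 9 ranged from 214.6 to 279.1 CPM in WT and from 173.9 to 205.5 CPM in TSC1, and none was at 0 in any library. Of 8 mural cell genes in the tables (Pdgfrb, Rgs5, Kcnj8, Abcc9, Myh11, Tagln, Cspg4 and Anpep), 6 were below 0 with a median of -0.26, and edgeR called 0. At an unadjusted p below 0.05 edgeR found 1 higher (Cspg4) and 2 lower, where 18.0% of all tested genes were found in either direction. The summed level of the 8 was 140.3 to 170.1 CPM in WT and 133.4 to 154.9 CPM in TSC1. Notch4 and Dll4, known mainly from endothelium and chosen after their values were seen, had log2 fold changes of 0.18 and 0.04 (edgeR adjusted p = 0.596 and 0.928). The part of vessel cells in the values of Notch3 and Jag1 was not tested.

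Among the targets, Hes1, a repressor of proneural genes in radial glia, was measured at 8.36, 10.3 and 11.5 TPM in WT and at 8.51, 8.95 and 10.9 TPM in TSC1. The groups overlapped, and the log2 fold change was -0.12 (95% interval -0.56 to 0.32, edgeR adjusted p = 0.788). Its counts were the lowest of the targets, 64 to 95 per library.

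Hes5, the target most restricted to Notch-active progenitors and the gene whose matches are shown above, stood at 28.3, 36.9 and 36.9 TPM in WT and at 26.4, 28.1 and 35.35 TPM in TSC1. WT replicate 1 lay with TSC1 replicates 1 and 2, and TSC1 replicate 3 lay with WT replicates 2 and 3. The log2 fold change was -0.22 (95% interval -0.60 to 0.16, edgeR adjusted p = 0.537). Leaving out 1 mouse at a time gave from -0.37 without TSC1 replicate 3 (edgeR adjusted p = 0.221) and -0.35 without WT replicate 1 to -0.15 without WT replicate 2, -0.14 without WT replicate 3 and -0.12 without TSC1 replicate 1 (edgeR adjusted p = 0.833).

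Hey1, a related repressor active in progenitors and endothelium, followed the same pattern, at 27.6, 36.6 and 35.9 TPM in WT and at 26.4, 29.4 and 33.7 TPM in TSC1. Again WT replicate 1 sat among the TSC1 mice, and the groups overlapped, with a difference of -0.19 on the log2 scale (95% interval -0.53 to 0.15, edgeR adjusted p = 0.543). It was -0.33 without WT replicate 1 and -0.30 without TSC1 replicate 3, and -0.12 without WT replicate 2 or WT replicate 3 and -0.098 without TSC1 replicate 1.

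Heyl, a Hey family member of mural cells and other Notch-active cells, was measured at 5.76, 5.78 and 4.53 TPM in WT and at 7.38, 4.62 and 4.38 TPM in TSC1. TSC1 replicate 1 was the highest of the 6 mice and TSC1 replicate 3 the lowest, and the groups differed by -0.01 on the log2 scale (95% interval -0.46 to 0.45, edgeR adjusted p = 0.991).

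For Hes1, Hes5 and Hey1 the spread between mice of a group, an SD of 0.201 to 0.271 in log2 CPM, was near or above the differences between the groups. Relative to each gene's own mean over the 6 mice, in log2 CPM, Hes1, Hes5 and Hey1 were all low in WT replicate 1 (-0.23, -0.19 and -0.21) and in TSC1 replicate 1 (-0.23, -0.31 and -0.29). All 3 were high in WT replicate 3 (0.30, 0.27 and 0.25) and in TSC1 replicate 3 (0.17, 0.16 and 0.11). They were above their means in WT replicate 2 (0.11, 0.24 and 0.25) and below them in TSC1 replicate 2 (-0.12, -0.18 and -0.10). In TSC1 replicate 1, where these 3 were low, Heyl, Notch2 and Dll3 were at their highest (0.42, 0.33 and 0.23). These deviations share the library, so they are given as a description. As shares of the 4 summed targets, Hes5 ranged from 38.4% to 41.9% and Hey1 from 38.5% to 41.4% over the 6 mice, while the summed level ran from 68.7 to 89.6 TPM.

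**Figure D3:**
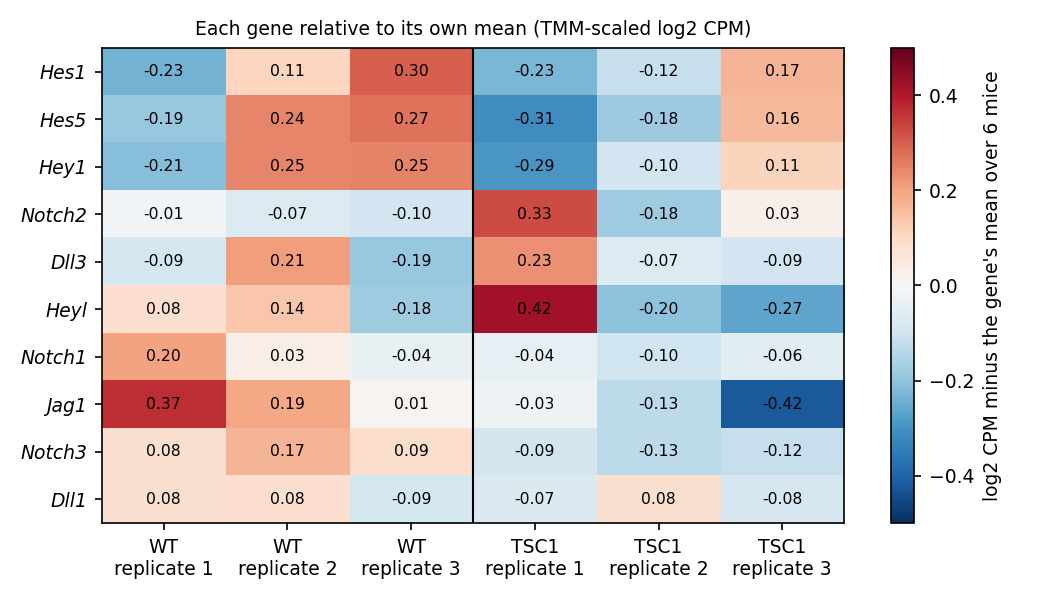
Each gene's TMM-scaled log2 CPM minus its mean over the 6 mice (colour and printed value), with 1 column per mouse and the WT mice left of the black line. Hes1, Hes5 and Hey1 are below 0 in both replicate 1 libraries and above 0 in both replicate 3 libraries. In replicate 2 they are above 0 in WT and below 0 in TSC1. Notch3 is above 0 in the 3 WT mice and below 0 in the 3 TSC1 mice.

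Ratios of 2 members within a library do not depend on how libraries are scaled against each other, and 7 such ratios were compared as log2 of TPM + 0.1. The groups were separated in 1 of them: Dll1 to Jag1 was 1.25, 1.43 and 1.44 in WT and 1.49, 1.75 and 1.87 in TSC1. The difference was 0.33 (exact permutation test, two-sided, p = 0.1, the smallest that 3 mice against 3 allow, 0.467 after Benjamini-Hochberg adjustment over the 7 ratios). For Notch1 to Notch2 the mean was 0.05 ± 0.079 in WT and -0.20 ± 0.224 in TSC1 (SD, n = 3), and the groups overlapped (exact permutation p = 0.2). Hes5 to Hes1 was 1.75 ± 0.0827 in WT and 1.65 ± 0.036 in TSC1 (SD, n = 3), also with overlap (exact permutation p = 0.2). The other four ratios, Hey1 to Heyl, Hes5 to Notch1, Notch1 to Notch3 and Dll3 to Dll1, had exact permutation p-values of 0.7, 0.9, 0.4 and 0.6. This permutation test cannot go below 0.1 with 3 mice against 3, so it could not have passed for any ratio.

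The rest of the pathway was read from a list of 53 further genes, of which 51 were in the tables and 48 passed the filter on low counts. With edgeR 0 of 48 had an adjusted p below 0.05, and limma on log2 TPM also gave 0, while DESeq2 called 2, Dlk1 and Neurl1b. At an unadjusted p below 0.05, edgeR found 10 of 48, 4 higher and 6 lower in TSC1. Over all tested genes the shares were 1.52% for edgeR, 4.55% for DESeq2 and 18.0% at an unadjusted p below 0.05, and nothing particular to the pathway is read from these counts. The median log2 fold change of the 48 was 0.01, with 26 above and 22 below 0. For each function, the gene with the smallest p is given below, and Maml1, Maml3, Rbpj, Hes6, Mib1, Notch4 and Dll4 are named besides, chosen after their values were seen.

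Mastermind-like proteins bind the receptor's intracellular part and Rbpj on DNA. Maml2 was measured at 13.6, 13.5 and 12.1 TPM in WT and at 10.5, 9.44 and 10.4 TPM in TSC1, without overlap (log2 fold change -0.39, standard error 0.0981, edgeR adjusted p = 0.0874). Maml3 was at 7.49, 7.74 and 8.40 TPM in WT and at 5.75, 5.43 and 6.45 TPM in TSC1, also without overlap (log2 fold change -0.45, edgeR adjusted p = 0.102). Maml1 had a log2 fold change of -0.26 (edgeR adjusted p = 0.252). All 3 stood lower in every TSC1 mouse than in any WT mouse on CPM, which held for 11.7% of all tested genes, and none passed. Rbpj, the DNA-binding partner, was at 33.3 ± 2.997 TPM in WT and 35.4 ± 2.099 TPM in TSC1 (SD, n = 3, log2 fold change 0.06, edgeR adjusted p = 0.711). Over the 10 nuclear complex genes, 5 were above and 5 below 0, with a median of -0.02.

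Lfng, a fringe enzyme that adds sugar to the receptor and shifts its response between Delta and Jagged ligands, was measured at 16.5, 19.5 and 21.8 TPM in WT and at 14.4, 11.99 and 16.2 TPM in TSC1. All 3 TSC1 values lay below the WT values in TPM, by a narrow margin between WT replicate 1 and TSC1 replicate 3, and the groups overlapped on CPM (log2 fold change -0.47, standard error 0.162, edgeR adjusted p = 0.178). The 5 fringe and sugar transfer genes had a median of -0.01.

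Nrarp, itself a Notch target that dampens the signal, was at 39.1 ± 0.755 TPM in WT and 32.7 ± 1.48 TPM in TSC1 (SD, n = 3), and the groups did not overlap (log2 fold change -0.29, standard error 0.0863, edgeR adjusted p = 0.130). The 8 inhibitor and turnover genes tested had a median of 0.00. Hey2, the remaining Hey gene, was at 8.12, 4.82 and 5.60 TPM in WT and at 5.54, 4.80 and 3.93 TPM in TSC1, with overlap (log2 fold change -0.40, edgeR adjusted p = 0.372). Hes6, which counteracts Hes1, was the most abundant other Hes gene at 122.2 ± 16.1 TPM in WT and 132.4 ± 6.94 TPM in TSC1 (SD, n = 3, edgeR adjusted p = 0.738). Hes2, Hes3 and Hes7 had 12 counts or fewer in every library and were not tested.

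Neurl1b, a ubiquitin ligase that drives ligand uptake, was the gene furthest above 0, at 31.1, 27.2 and 24.6 TPM in WT and 35.7, 41.4 and 33.6 TPM in TSC1 (log2 fold change 0.39, standard error 0.101, edgeR adjusted p = 0.0905). Mib1, another such ligase, was at 48.4 ± 5.24 TPM in WT and 57.9 ± 2.24 TPM in TSC1 (SD, n = 3, log2 fold change 0.23, edgeR adjusted p = 0.186). For both genes the groups did not overlap on CPM, as for 22.7% of all tested genes in either direction. All 3 tested genes of this function were above 0, with a median of 0.23. Of the 10 cleavage genes, which release the receptor's intracellular part, Adam10 had the smallest p, with a log2 fold change of 0.14 (edgeR adjusted p = 0.344), and the median was 0.03.

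Dlk1, a Delta-like protein without the usual receptor-binding domain, was the furthest below 0 of all 48, at 2.0, 3.49 and 3.52 TPM in WT and at 1.01, 0.960 and 1.93 TPM in TSC1. The groups were separated in TPM only between 2.0 and 1.93, and overlapped on CPM (log2 fold change -1.24, standard error 0.343, edgeR adjusted p = 0.107). Without TSC1 replicate 3 the log2 fold change was -1.68 and passed (edgeR adjusted p = 0.0221), and in DESeq2 on all 6 mice the adjusted p was 0.0275. Among the other receptors and ligands the median was -0.01 over 8 genes.

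**Figure D4:**
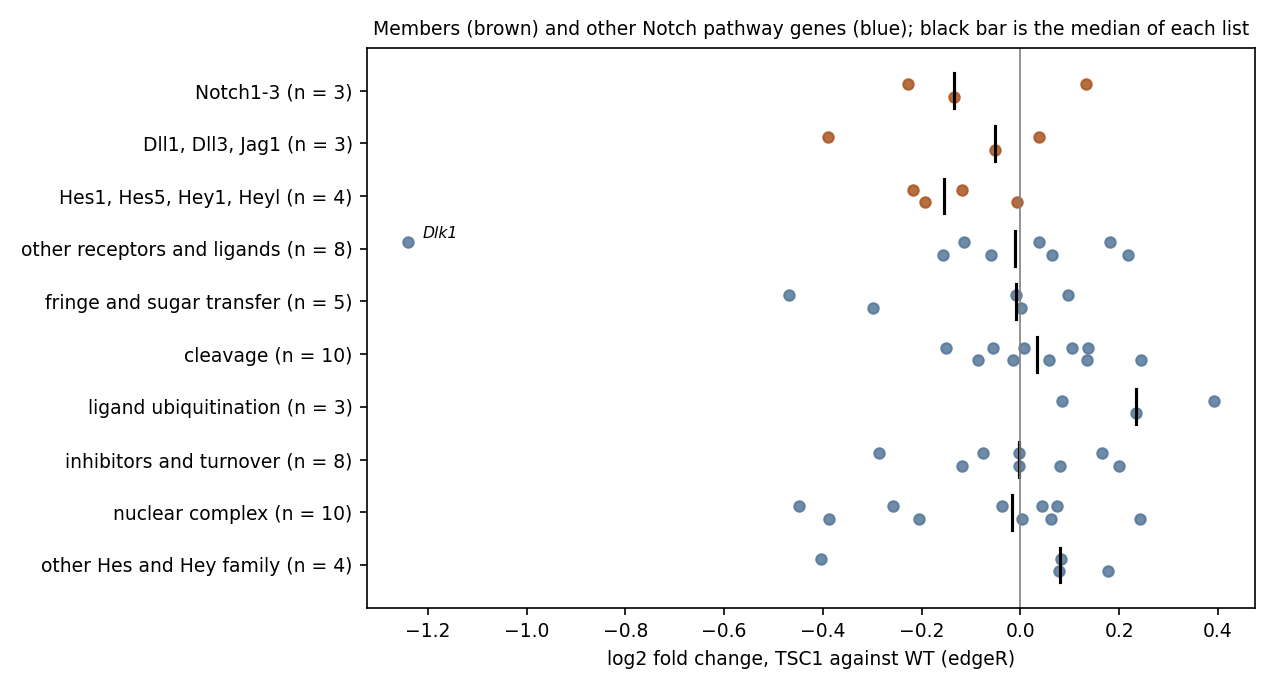
The log2 fold change (horizontal axis, TSC1 against WT, edgeR) of the 10 members (brown) and of the 48 other tested Notch pathway genes (blue), 1 point per gene and 1 line per function, with a black bar at each line's median. The members lie between -0.39 and 0.13, Dlk1 at -1.24 stands apart on the left, and the 3 ligand ubiquitination genes all lie to the right of 0.

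Markers of the cells that use Notch signaling were read beside the targets. Of 12 radial glia and progenitor genes, 10 were below 0 (median -0.14), and 1 passed in edgeR: Sox2, a transcription factor of neural stem cells, was lower in TSC1, at 58.0 ± 2.82 TPM against 78.7 ± 2.96 TPM in WT (SD, n = 3, log2 fold change -0.47, edgeR adjusted p = 0.0297). The summed level of the 12 was 2294.4 to 2690.5 CPM in WT and 2156.5 to 2296.8 CPM in TSC1, and none was at 0 in any library. In replicate order the sum was 2690.5, 2294.4 and 2454.8 CPM in WT and 2296.8, 2180.7 and 2156.5 CPM in TSC1. Hes1, Hes5 and Hey1 were below their means in WT replicate 1 and in TSC1 replicates 1 and 2. They were above their means in WT replicates 2 and 3 and in TSC1 replicate 3. Of 8 cycling-cell genes, 8 were below 0 with a median of -0.26, 0 called and 3 at an unadjusted p below 0.05. They summed to 282.8 to 327.0 CPM in WT and 252.1 to 268.4 CPM in TSC1. Over all tested genes edgeR called 1.52%, and 8.93% were lower at an unadjusted p below 0.05. Of 10 tested proneural and intermediate progenitor genes, 6 were above and 4 below 0, with a median of 0.05, 0 called and 0 at an unadjusted p below 0.05. Their summed level was 208.0 to 255.5 CPM in WT and 212.4 to 263.9 CPM in TSC1. The part of progenitor number in the Hes and Hey values was not tested.

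Markers of other cell types were read in the same way. Of 9 subpallial progenitor genes, 8 were below 0 with a median of -0.62, and Dlx1 passed (log2 fold change -0.68, edgeR adjusted p = 0.0183). With edgeR 6 of the 9 were lower at an unadjusted p below 0.05, where 8.93% of all tested genes were. On CPM 7 of the 9 were lower in TSC1 without overlap, where 11.7% of all tested genes were. Their summed level was 280.7 to 316.7 CPM in WT and 186.3 to 228.2 CPM in TSC1. The 5 choroid plexus genes were all below 0 with a median of -1.67, 0 called and 5 at an unadjusted p below 0.05, and their summed level was 508.7 to 1094.1 CPM in WT and 14.3 to 371.4 CPM in TSC1. By replicate, that sum was 710.2, 508.7 and 1094.1 CPM in WT and 14.3, 47.7 and 371.4 CPM in TSC1. Its relation to the level of Notch2 was not tested. The 4 blood genes found had a median of -0.98, the 6 microglia genes -0.16 and the 4 oligodendrocyte lineage genes -0.06, each with 0 called. Of the blood genes, edgeR found 3 lower at an unadjusted p below 0.05. The blood sum was 515.5, 638.6 and 1780.9 CPM in WT and 456.3, 427.0 and 599.7 CPM in TSC1, so the groups overlapped and WT replicate 3 stood apart. The 7 neuron genes had a median of 0.08 with 0 called. Of 6 astrocyte genes, which had a median of 0.10, 3 were above and 3 below 0. Gfap and Aldoc rose, by 1.09 and 0.60 on the log2 scale (edgeR adjusted p = 0.00683 and 0.0195), while Gja1, at -0.69, was the furthest below 0 and did not pass (edgeR adjusted p = 0.130).

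The genes whose level across the 6 mice was most like that of Notch3, by Pearson's r of TMM-scaled log2 CPM, were Mdk (0.991), Tmem39a (0.985) and Kcnc2 (0.982). Those most like Jag1 were Maml1 (0.999), Ptgdr (0.996) and Mctp2 (0.992). With 6 mice, 313 and 128 of 13968 genes had an r above 0.9 with Notch3 and Jag1, so these are a description of the libraries. Mdk, a growth factor gene, was called and was lower in TSC1 (log2 fold change -0.58, edgeR adjusted p = 0.0391), and the other five were not.

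The gene models limit how exactly some counts belong to these genes. In GENCODE M21, also on GRCm38, exons of 5 members share bases with a transcript of another gene that the tables do not list, on the opposite strand for Notch1, Notch3, Dll1 and Hes5 and on the same strand for Notch2. The share of the exonic bases was 31.8% for Hes5 (chr4:154960923-154962371, plus strand), which overlaps Gm20421, and 20.5% for Dll1 (chr17:15367354-15376872, minus strand), which overlaps A930024N18Rik. The library kit does not mark strand, so reads of the overlapping parts cannot be told apart. Notch3 (chr17:32120820-32166852, minus strand) shared 6.03% with Gm17276, and Jag1 (chr2:137081456-137116644, minus strand) shared none. All 10 members had whole-number expected counts in every library and a single transcript in the tables, so RSEM divided none of their reads.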

How the data were processed

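Per the labels and the study's methods, the authors used FastQC and trimming, MapSplice2 with the mm10 genome, and RSEM 1.2.12 with RefSeq transcripts. The deposited expected counts are RSEM's estimates of reads per gene, with no normalization. The deposited TPM and FPKM are corrected for length and depth by RSEM, and FPKM was not used. Lengths in the tables served 1 alternative.

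The counts, rounded to integers, were fitted over all genes with edgeR 4.0.16 in R 4.3.3 (filterByExpr, TMM, quasi-likelihood test, no covariate), with Benjamini-Hochberg adjustment over 13969 genes and a threshold of 0.05. Standard errors and 95% intervals come from that test. Alternatives were other normalizations, filters, DESeq2 1.42.0, limma 3.58.1 on log2(TPM + 1) or log2(TPM + 0.1), effective-length offsets, a replicate block and left-out mice. The study's permutation-based method was not rerun. Ratios used exact permutation tests in scipy 1.17.1. The scripts were tested on simulated counts. Log2 CPM used a prior count of 2.

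The members and gene lists were chosen with earlier results of these data known. The rule named all members, the called genes of each pathway function or, with none called, that of smallest p, and the 3 genes most like each of the 2 members of smallest p. Neurl1a, Dtx4, Acta2, Hbb-bt and Emx2 were not analysed here. Mfng and Hes6 stand in 2 lists, as do Olig2 and Cspg4. Hbb-bs was matched through the synonym Beta-s. The result of the forebrain marker list as a whole is not reported here.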

Additional observations from a re-analysis of the deposited data

How the results depend on the processing

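None of the 10 Notch genes was called under any of the 16 alternatives, and 150 of their 160 estimates kept their sign. The exceptions lay between -0.074 and 0.12. Over the fits that left out 1 mouse, the log2 fold change ran from -0.012 to 0.24 for Notch2, -0.074 to 0.17 for Dll3, -0.25 to 0.0065 for Hes1 and -0.26 to 0.12 for Heyl, and with both samples numbered 3 left out Heyl was at 0.034. The within-library differences that changed sign ran from -0.38 to 0.165 for Hey1 to Heyl, -0.30 to 0.053 for Hes5 to Notch1 and -0.032 to 0.19 for Dll3 to Dll1. For Notch3 the range over all alternatives was -0.26 to -0.18 and for Jag1 -0.48 to -0.28.

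Counts of calls moved more. Over all genes edgeR called 212, against 636 in DESeq2, 346 with no filter, 551 with the replicate block and 434 with both samples numbered 3 left out. Leaving out 1 mouse gave from 29 to 799: 29 without WT replicate 2, 35 without WT replicate 3, 37 without TSC1 replicate 1 or 2, 447 without WT replicate 1 and 799 without TSC1 replicate 3. Of the other pathway genes, 0 were called, against 2 in DESeq2, 1 with the block (Dlk1), 1 with both samples numbered 3 left out (Dlk1), and 0 to 3 without 1 mouse. The 3, without TSC1 replicate 3, were Dlk1, Neurl1b and Maml3, and without WT replicate 1 Dlk1 alone passed. Of the 89 cell type markers tested, 4 were called in edgeR, where 1.52% of all tested genes were. The count was 15 in DESeq2, where 4.55% of all tested genes were called. It was 8 of 90 with no filter and 16 with the block. With both samples numbered 3 left out it was 16, and without 1 mouse it was 0 to 17. The cause was not tested.

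The labels do not tie samples of the same replicate number to a shared litter or batch. Both samples numbered 3, and no others, had Ddx3y counts. Across genes, departures of same-numbered samples from the mean of their group correlated at 0.267, -0.133 and 0.318 for numbers 1, 2 and 3, so pairing was not shown for all 3. Not every sample correlated best with its own number, since WT replicate 2 did so with TSC1 replicate 3 (0.117). With the block the estimate was -0.23 for Notch3 (edgeR adjusted p = 0.195) and -0.39 for Jag1 (0.115). Hes1 and Dll3 had the fewest counts, 64 to 111 per library.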
